A study of Mus musculus with 2 samples.

Results

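Clade B serpins are mostly protease inhibitors, and most lack a cleaved signal peptide and work inside the cell. An inhibitory serpin offers an exposed loop to a protease, which cuts it and is then trapped in a covalent complex. Inhibitor and protease are thus both used up. In macrophages and lymphocytes they are known for shielding the cell from proteases that leak out of its own granules or lysosomes. The *Serpinb9b* product inhibits granzyme M and the *Serpinb9* product granzyme B, both proteases of cytotoxic granules. The *Serpinb6b* product inhibits mouse granzyme A. The human counterpart of *Serpinb6a* inhibits cathepsin G, and that of *Serpinb1a* inhibits neutrophil elastase, cathepsin G and proteinase 3. *Serpinb2* encodes PAI-2, an inhibitor of urokinase, and human SERPINB8 inhibits furin.

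The 7 genes *Serpinb9b*, *Serpinb9*, *Serpinb6b*, *Serpinb6a*, *Serpinb1a*, *Serpinb2* and *Serpinb8* were taken out of 18193 genes on the array, with the 10 probe sets whose annotation names 1 of these genes and no other. RNA came from RAW264.7 cells, a mouse macrophage line, transfected with *Flcn* siRNA or with scramble siRNA. The medium was changed 24 hours after transfection, the RNA was taken 48 hours later, and each condition was measured on 1 Affymetrix GeneChip array of the mouse genome. The methods name 1 siRNA sequence for *Flcn* and 1 negative control, and the labels name no RANKL, the cytokine that turns these cells into osteoclasts. The family was chosen by measured values of these same arrays, namely the high ratio of *Serpinb9b*, so that the values are a description and carry no test. With 1 array per condition no value has a replicate check or a p-value, and precision is limited by the number of arrays.

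The targeted gene, *Flcn*, had signals of 145 with *Flcn* siRNA and 209 with scramble siRNA at one probe set, and 206 and 241 at another, which are log2 ratios of -0.52 and -0.22. Its remaining probe set lay under the array median on both. All 10 macrophage markers lay above the median signal of the arrays, which was 13.6 with *Flcn* siRNA and 12.8 with scramble siRNA, and their summed signal was 31006 with *Flcn* siRNA and 31392 with scramble siRNA. Of these 10 markers 1 was lower by 1.5-fold or more, as were 5.52% of all genes above the signal filter given below. It was the Fc receptor gene *Fcgr1*, with signals of 380 with *Flcn* siRNA and 1033 with scramble siRNA (log2 ratio -1.44) and a log2 ratio of -1.39 at its other probe set. None of 9 T and NK cell markers, 6 mast cell markers, 9 neutrophil markers and 6 epithelial markers lay at or above the median on both arrays. The summed signal of the neutrophil markers was 74.2 with *Flcn* siRNA and 39.1 with scramble siRNA, of which *S100a8* made up 27.5 with *Flcn* siRNA and 11.3 with scramble siRNA, and their part in the results was not tested. The array median serves below as a floor, and lower signals were raised to it before a ratio was taken.

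*Serpinb9b* and *Serpinb9* lie next to each other in the cluster on chromosome 13. Their upstream sequences are shown because these neighbours had ratios on opposite sides of 0. The pair was thus chosen by the ratios, and any link of sequence to ratio was not tested. Each sequence holds the 250 bases before the RefSeq start site on GRCm38.p6, plus strand, chr13:33027164-33027413 for *Serpinb9b* and chr13:33004291-33004540 for *Serpinb9*. Capitals in *Serpinb9* mark, read on the minus strand, a pair of GAAA runs with 2 bases of any kind between them, the core of an interferon-stimulated response element, and capitals in *Serpinb9b* mark the bases aligned with them.
Serpinb9b: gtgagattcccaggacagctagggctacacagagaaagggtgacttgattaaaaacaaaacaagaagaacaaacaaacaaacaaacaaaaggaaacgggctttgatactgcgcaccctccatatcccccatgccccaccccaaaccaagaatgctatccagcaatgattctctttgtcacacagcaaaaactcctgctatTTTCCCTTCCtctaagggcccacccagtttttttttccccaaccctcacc
Serpinb9: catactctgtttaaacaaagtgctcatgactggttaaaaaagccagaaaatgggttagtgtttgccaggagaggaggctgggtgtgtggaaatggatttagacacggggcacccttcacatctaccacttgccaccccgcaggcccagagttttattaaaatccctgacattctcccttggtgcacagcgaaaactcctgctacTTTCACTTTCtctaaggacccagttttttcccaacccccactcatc
Where a member had several start sites, only the first by position was aligned. This leaves out the *Serpinb6a* entry that holds such a pair of GAAA runs. In a global alignment the sequences of *Serpinb9* and *Serpinb9b* were 56.2% identical over 274 columns, while the other 14 pairs among the 6 members with an entry ranged from 39.5% to 48.0%. Their longest run of identical letters was AAAACTCCTGCTA, which ends just before the marked stretch, and within that stretch 8 of 10 letters were the same.

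The member that stood apart was *Serpinb9b*. Its probe set, 1422668_at, had signals of 56.9 with *Flcn* siRNA and 14.8 with scramble siRNA, which is 3.84-fold higher with *Flcn* siRNA and a log2 ratio of 1.94. The scramble siRNA signal lay close to that array's median of 12.8, so that the ratio rests on a weak signal there, while the *Flcn* siRNA signal was 4.18 times its array's median. Of 10285 genes whose geometric mean signal reached 13.2, the filter used throughout, *Serpinb9b* had the second highest ratio, after *Gpnmb* (8.49-fold). It belongs to a set of 602 that were at least 1.5-fold higher, which make up 5.85% of the genes above the filter, while 568 (5.52%) were lower by as much. The higher genes were 51.5% of both, and 34.1% after division by the array median. Among the 2572 genes with the weakest signals, between 13.2 and 61.5, 13.3% were higher by as much, against 1.71% among the 2571 with the strongest. With signals raised to the floor, no other gene in that weak range had a ratio as high as that of *Serpinb9b*. In RNA of a whole culture, more RNA per cell and more cells that hold it cannot be told apart. The gene has 1 probe set in the table, so its ratio has no second probe set to be read against. Probe sequences were not at hand, so binding of this probe set to transcripts of related serpins was not checked.

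**Figure D1:**
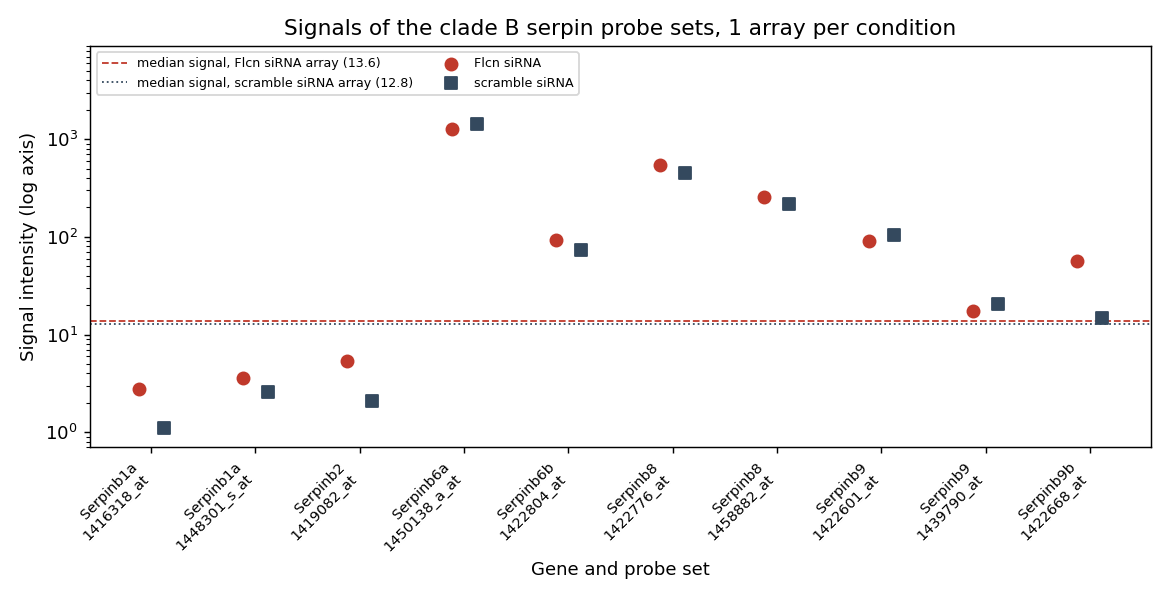
Signal intensity of each of the 10 probe sets of the 7 clade B serpins, on a log axis, with circles for the *Flcn* siRNA array and squares for the scramble siRNA array, 1 array each. Lines mark the array medians of 13.6 and 12.8; the circle and square of *Serpinb9b* lie the farthest apart among the probe sets above both lines, and the 3 probe sets of *Serpinb1a* and *Serpinb2* lie under them.

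The other granzyme inhibitors had smaller differences. *Serpinb9* had a signal of 89.7 with *Flcn* siRNA and 105.6 with scramble siRNA at 1422601_at, and 17.4 and 20.6 at 1439790_at. The log2 ratios, -0.235 and -0.244, were nearly alike and below 0 at both probe sets. For scale, log2 ratios from different probe sets of 1 gene had a median SD of 0.186 over 5034 genes, which is technical spread and no replicate error. *Serpinb6b* had a signal of 92.9 with *Flcn* siRNA and 73.2 with scramble siRNA, a log2 ratio of 0.34, the second highest among the members. Neither gene reached 1.5-fold.

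Of the inhibitors known for neutrophil proteases, *Serpinb6a* had a signal of 1284 with *Flcn* siRNA and 1426 with scramble siRNA. Its log2 ratio of -0.15 was smaller than the technical spread of 0.186 under the reported setting. Its probe set, 1450138_a_at, is of the kind that reads several transcripts of 1 gene, so the transcripts cannot be told apart. *Serpinb1a* lay far under the array median at both of its probe sets. The signals at 1416318_at were 2.8 with *Flcn* siRNA and 1.1 with scramble siRNA, and those at 1448301_s_at were 3.6 and 2.6. The second of these has the suffix for probes that can also bind transcripts of other genes, and it was low as well. No ratio is given for signals this low.

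*Serpinb2*, which macrophages are known to induce strongly in response to bacterial lipopolysaccharide, had a signal of 5.4 with *Flcn* siRNA and 2.1 with scramble siRNA, both under the array median, and no ratio is given. *Serpinb8* had a signal of 538 with *Flcn* siRNA and 453 with scramble siRNA at 1422776_at, and 257 and 216 at 1458882_at. Its probe sets gave log2 ratios of 0.250 and 0.255, above the technical spread and short of 1.5-fold. After division of each array by its median signal *Serpinb8* was at 0.162, under that spread, and *Serpinb6a* at -0.239, beyond it. Of the 7 members 5 passed the filter. Of these 1 was higher by 1.5-fold or more and none was lower, against 5.85% and 5.52% of all genes above the filter. That 1 member is the gene for which the family was proposed, and nothing is read from the count. Of the other 6 genes, *Serpinb6b* and *Serpinb8* had ratios above 0, *Serpinb9* and *Serpinb6a* below 0, and *Serpinb1a* and *Serpinb2* did not pass the filter. Over all genes above the filter, 51.7% had a ratio above 0.

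**Figure D2:**
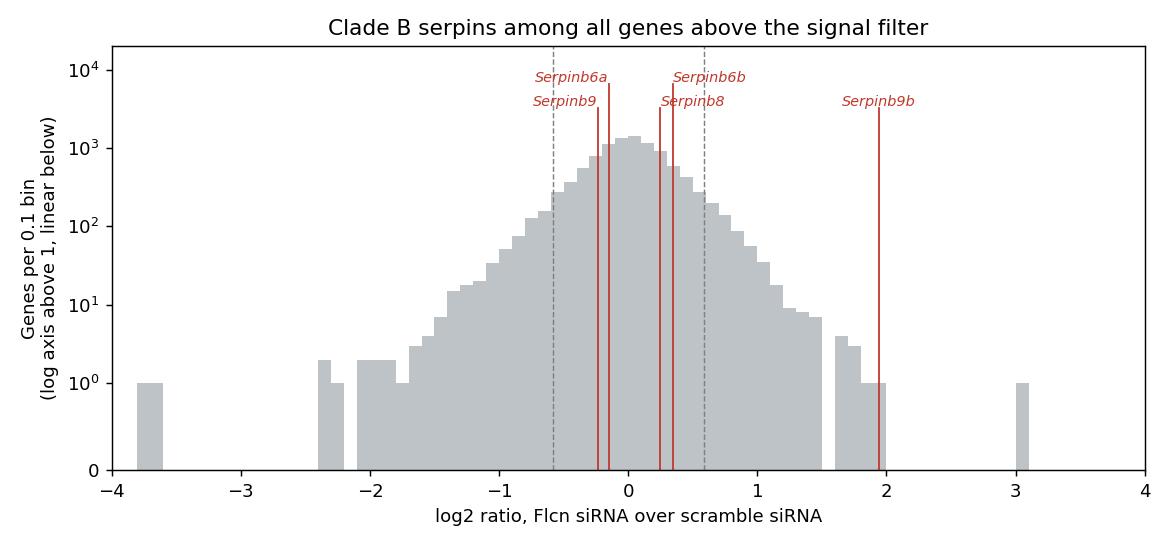
Number of genes per bin of the log2 ratio, *Flcn* siRNA over scramble siRNA, for 10285 genes above the signal filter (grey bars, log axis above 1 gene), with red lines at the 5 clade B serpins that passed it and dashed lines at 1.5-fold. *Serpinb9b* lies at 1.94 in the right tail, and the other members lie inside the dashed lines.

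The signs of these ratios were the same under each setting that gave a value. *Serpinb9b* ranged from 0.93 to 1.94 on the log2 scale, *Serpinb6b* from 0.25 to 0.34, *Serpinb8* from 0.16 to 0.26, *Serpinb6a* from -0.24 to -0.14 and *Serpinb9* from -0.32 to -0.18. The lowest value of *Serpinb9b* came from adding 32 to every signal, which shrinks the ratios of weak signals, and it was then 1.9-fold higher and had the 14th highest ratio. Dividing each array by its median signal lowers every log2 ratio by 0.0875.

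**Figure D3:**
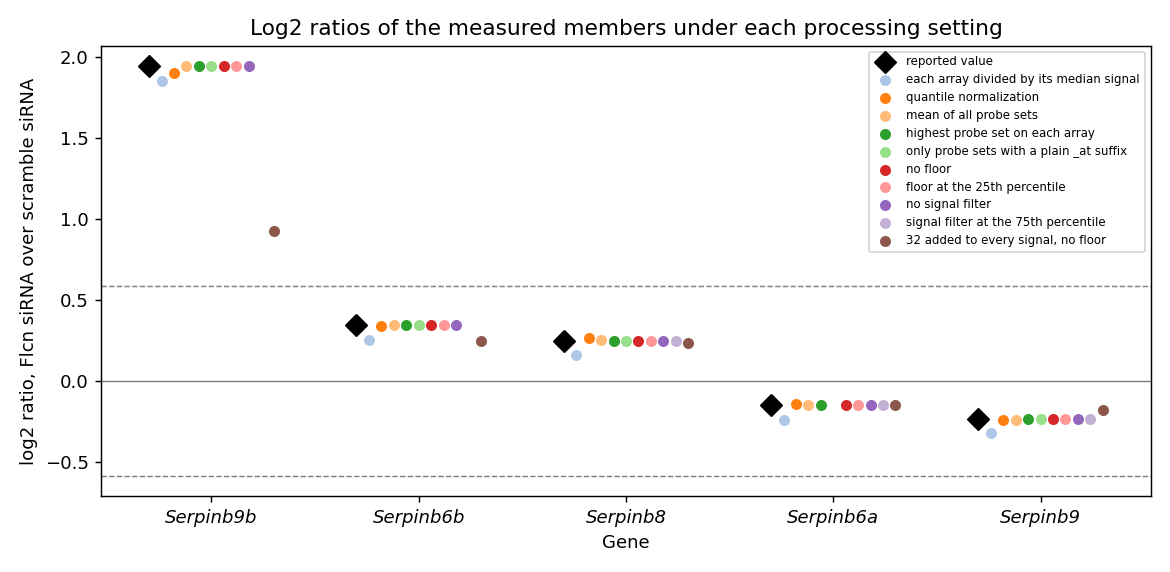
Log2 ratio, *Flcn* siRNA over scramble siRNA, of the 5 measured members under the reported setting (black diamonds) and under 10 other settings (coloured points), with dashed lines at 1.5-fold. Points are missing where the gene had no value under a setting; *Serpinb9b* is above the upper line at each of its points, and the other 4 genes lie between the lines.

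In the mouse genome clade B serpins lie in a cluster of 16 protein-coding genes on chromosome 13, which holds 5 of the members, and a cluster of 12 on chromosome 1, with *Serpinb2* and *Serpinb8*. Along chromosome 13, *Serpinb9b* follows *Serpinb6b* and *Serpinb9* and precedes *Serpinb1b*. *Serpinb1b* had a signal of 14.7 with *Flcn* siRNA and 16.8 with scramble siRNA (log2 ratio -0.19), so the genes on both sides of *Serpinb9b* had ratios below 0. The 4 nearest protein-coding genes outside each end of the clusters gave 10 genes above the filter, whose log2 ratios ranged from -0.70 to 0.28. The lowest of them was *Dsel* on chromosome 1, with a signal of 41.2 with *Flcn* siRNA and 66.8 with scramble siRNA. The highest was *Wrnip1*, which precedes *Serpinb1a*, with 213.5 with *Flcn* siRNA and 176 with scramble siRNA.

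**Figure D4:**
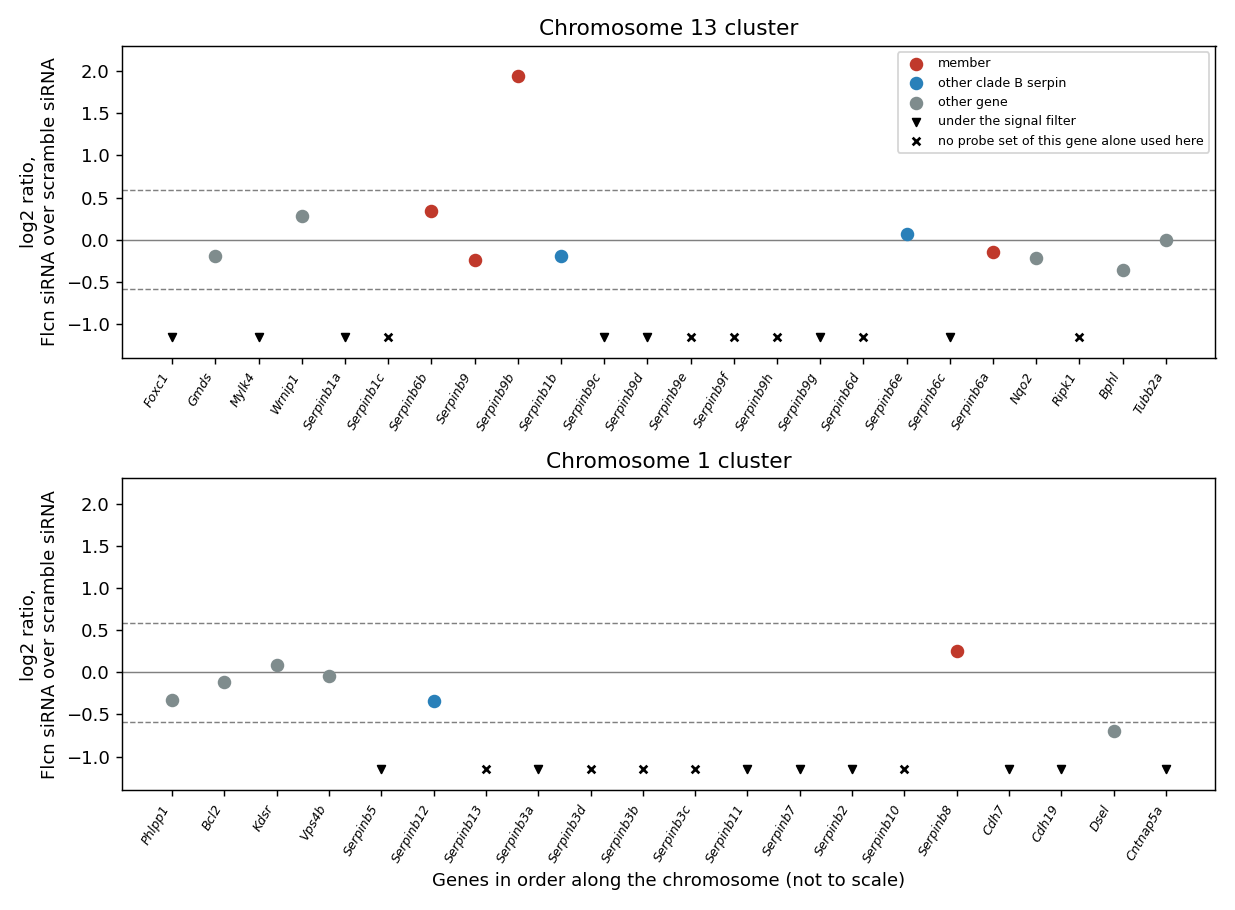
Log2 ratio, *Flcn* siRNA over scramble siRNA, of the genes of both clade B clusters and 4 genes on each side, in order along the chromosome and not to scale. Triangles mark genes under the signal filter and crosses genes with no probe set of their own used here; *Serpinb9b*, at 1.94, is the 1 point above the upper dashed line of 1.5-fold.

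The array holds 11 other clade B serpins in 16 probe sets of their own. Of these probe sets 12 lay under the median on both arrays, and 3 genes passed the filter. Besides *Serpinb1b* these were *Serpinb12*, with a signal of 14.7 with *Flcn* siRNA and 18.6 with scramble siRNA, and *Serpinb6e*, with 27.1 and 25.8. None of the 3 reached 1.5-fold, beside 11.4% of all genes above the filter that were higher or lower by as much. Nothing is read from so small a count. The probe set of *Serpinb6e* is of a kind in which some probes are similar to other transcripts, and it may read paralogues. Another probe set names *Serpinb9e*, *Serpinb9f*, *Serpinb9g* and *Serpinb9h* together, and its signal was 8.3 with *Flcn* siRNA and 7.8 with scramble siRNA, under the median on both arrays. It names none of the 7 members.

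The granule proteases that several members are known to inhibit were at or near background. Of 20 granzymes and serine proteases of neutrophils and mast cells in the table none passed the filter, and 19 lay under the median on both arrays. *Gzmb*, the granzyme that *Serpinb9* inhibits, had a signal of 2.9 with *Flcn* siRNA and 6.8 with scramble siRNA. *Gzmm*, the granzyme that *Serpinb9b* inhibits, had 6.5 with *Flcn* siRNA and 1.8 with scramble siRNA. *Gzma*, the target of *Serpinb6b*, had 3.8 with *Flcn* siRNA and 1.1 with scramble siRNA. *Elane*, neutrophil elastase, had 14 with *Flcn* siRNA, just above that array's median, and 3.8 with scramble siRNA.

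Among genes of plasminogen activation, the system that *Serpinb2* restrains, 1 of 5 above the filter was higher by 1.5-fold or more and none was lower. Over all genes above the filter, 5.85% were higher and 5.52% were lower by as much. *Plau*, which encodes urokinase, had a signal of 979 with *Flcn* siRNA and 386 with scramble siRNA at one probe set, and 453 and 157 at the other, which are log2 ratios of 1.34 and 1.53. *Plaur*, the urokinase receptor, had 315 with *Flcn* siRNA and 298 with scramble siRNA (log2 ratio 0.08). The median log2 ratio of the 5 genes was 0.10, and that of all genes above the filter was 0.013.

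Cysteine cathepsins are lysosomal proteases that some clade B serpins inhibit. The list read here also holds legumain (*Lgmn*, log2 ratio 0.19), which is not a cathepsin. Of the 9 genes of this list above the filter, 1 was higher and 1 was lower by 1.5-fold or more. Their median log2 ratio was 0.17. Over all genes above the filter, 11.4% were higher or lower by as much. *Ctsk*, cathepsin K, the collagen-degrading protease of osteoclasts, had a signal of 58.4 with *Flcn* siRNA and 17.2 with scramble siRNA, 3.4-fold higher, and as for *Serpinb9b* the scramble siRNA signal was close to the array median. *Ctso* had 126.7 with *Flcn* siRNA and 216.6 with scramble siRNA (log2 ratio -0.77), and its other probe set had -0.84. *Ctsl* had 3925 with *Flcn* siRNA and 3964 with scramble siRNA, a log2 ratio near 0. *Ctsk* was also the gene whose log2 signals on the 2 arrays were nearest to those of *Serpinb9b*, at a Euclidean distance of 0.22. *Hs3st2* followed at 0.265 and *Zfp763* at 0.432, and over 2 arrays such a likeness says only that a pair of signals is similar.

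Caspases are proteases of cell death and inflammation. Of 7 above the filter none was higher and 1 was lower by 1.5-fold or more, with a median log2 ratio of -0.06. Over all genes above the filter, 5.85% were higher and 5.52% were lower by as much. *Casp4*, a sensor of intracellular lipopolysaccharide, had a signal of 284 with *Flcn* siRNA and 554 with scramble siRNA, a log2 ratio of -0.96. *Casp1*, the protease that matures interleukin 1 beta, had 623 with *Flcn* siRNA and 773 with scramble siRNA (log2 ratio -0.31).

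Other families of protease inhibitors were read in the same way, beside the 11.4% of all genes above the filter that were higher or lower by 1.5-fold or more. Of 20 serpins of other clades, most of which are secreted, 2 passed the filter and both reached 1.5-fold, 1 in each direction. *Serpinc1*, which encodes antithrombin, had a signal of 36.4 with *Flcn* siRNA and 23.5 with scramble siRNA, 1.55-fold higher, and *Serpinf1*, which encodes PEDF, had 61.4 and 95.5, a log2 ratio of -0.64. Of 9 cystatins and stefins, inhibitors of cysteine cathepsins, 3 passed the filter. Among them *Cst3*, which encodes cystatin C, had 5178 with *Flcn* siRNA and 5234 with scramble siRNA. *Cstb*, which encodes the intracellular cystatin B, had 3905 with *Flcn* siRNA and 3586 with scramble siRNA. Of 19 inhibitors of the Kunitz, Kazal and WAP families 4 passed the filter, and *Slpi*, an inhibitor of neutrophil elastase, had 37 with *Flcn* siRNA and 50.9 with scramble siRNA (log2 ratio -0.46). No gene of these last 2 lists reached 1.5-fold in either direction.

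**Figure D5:**
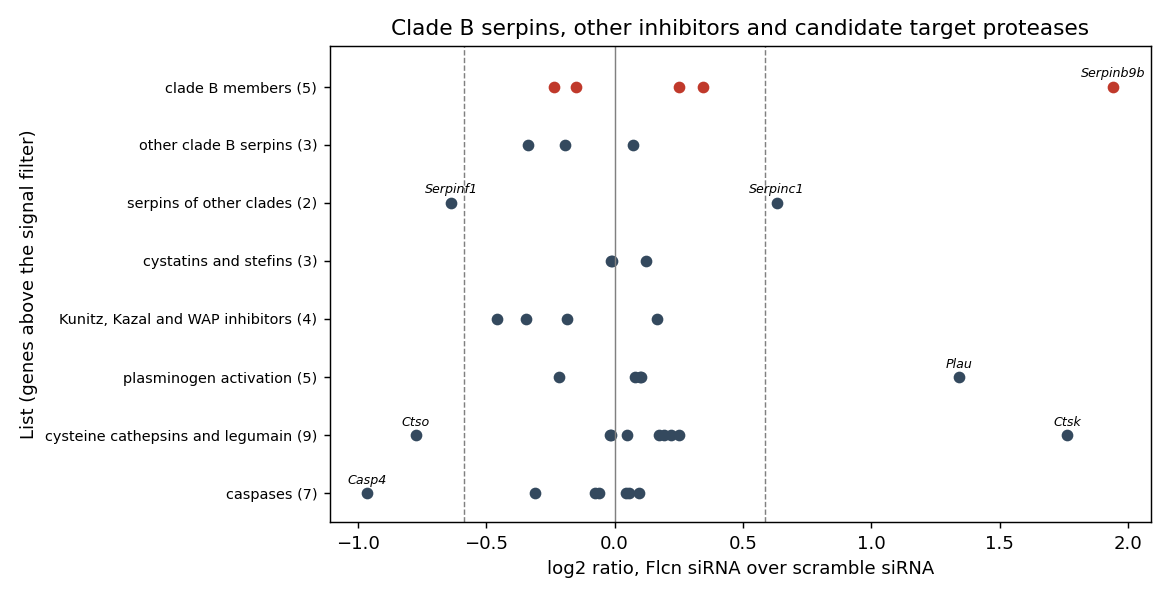
Log2 ratio, *Flcn* siRNA over scramble siRNA, of each gene above the signal filter in the clade B family (red) and in lists of other inhibitors and of proteases (dark), 1 point per gene, with the number of genes in parentheses. Genes past the dashed lines of 1.5-fold are named; *Serpinb9b*, *Ctsk* and *Plau* lie farthest to the right.

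Promoter letters were searched on both strands of the 250 bases before each start site in the RefSeq table, which has 8 entries for 6 of the members and none that matched *Serpinb1a*. CACGTG, the E-box bound by the factors of the MiT/TFE family to which Tfe3 belongs, was in none of the 8 and in 6.02% of all 32851 entries. TCATGTG, the core of the related M-box, was in none of the 8 and in 3.25% of all entries. The pair of GAAA runs with 2 bases between them was in 2 of the 8, those of *Serpinb9* and of 1 of the entries of *Serpinb6a*, and in 2.98% of all entries. TATAAA was in the 2 overlapping entries of *Serpinb2*, which share 1 match, and in 12.4% of all entries. The motifs searched do not overlap one another in the member sequences, and a match is only a run of letters.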

How the data were processed

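RNA of RAW264.7 cells with *Flcn* siRNA or scramble siRNA was measured on 1 array per condition. The authors ran GCOS on the scans, and each array has, for every probe set, a deposited signal intensity on a linear scale. The scaling settings were not stated, and after trimming 2% of probe sets at each end the mean signal is 100 on both arrays. Of 45101 probe sets, 34945 that are not controls name 1 gene in the platform annotation, and 34741 of these matched a RefSeq Entrez ID (GRCm38.p6). Where a gene had several probe sets, the one with the strongest geometric mean represented it. Signals were raised to the array median, genes with a geometric mean of at least 13.2 were kept, and genes were called by size alone, at 1.5-fold.

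The members and lists were chosen with earlier results of these data known. From each list, genes with the 3 highest and 3 lowest ratios were eligible to be named, together with the 3 genes nearest to *Serpinb9b*. *Gzmb*, *Gzmm*, *Gzma*, *Elane*, *Dsel* and *Wrnip1* and the promoter motifs were chosen later. The calls were tried on simulated data with equal noise at all signals and changes planted only in genes of stronger signal than *Serpinb9b*. That trial cannot speak for calls at weak signals. Alternatives covered scaling, choice of probe set, floor and filter; adding 32 was chosen after seeing the data. Python 3.11.15, numpy 2.4.6, pandas 2.3.3, matplotlib 3.10.9 and, for the promoter alignments, biopython 1.88 were used.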

Additional observations from a re-analysis of the deposited data

How the results depend on the processing

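The count of 1 member higher by 1.5-fold or more was the same under 9 of 10 alternatives. Most of these could not alter the ratio of *Serpinb9b*, which has 1 plain probe set and both signals above the median. They are the other choices of probe set, the other floors and the lack of a filter. With the signal filter at the 75th percentile the count was 0, because *Serpinb9b* then falls under the filter. No member was lower under any of the 10. With 32 added to every signal the log2 ratio of *Serpinb9b* was 0.93. Without a floor its ratio was unaltered but the fifth highest, since 3 genes with 1 signal under the median then come before it. Over all genes, 602 were higher and 568 were lower in the reported setting, 213 and 268 with the filter at the 75th percentile, where fewer genes are counted, and 179 and 239 with 32 added. With the mean of all probe sets 364 genes were lower. After division of each array by its median the higher genes made up 34.1% of those called, in place of 51.5%. *Serpinb6a* has no value with plain probe sets alone, since its probe set has another suffix. No paired analysis was possible because each condition has 1 array and the labels give no replicate numbers. Weak signals limit the ratio of *Serpinb9b*, and signals under the median give none for *Serpinb1a* and *Serpinb2*.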
